A study of Mus musculus with 8 samples.

Results

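Epithelial cells are held together by tight junctions, adherens junctions and desmosomes, and 39 mouse genes that encode their parts or the polarity complexes beside them were compared between sorted cell fractions of the small intestine. The genes were chosen by name: claudins, zonula occludens (ZO) proteins, cadherins, catenins, desmosomal proteins and polarity proteins. All 39 symbols matched 1 Ensembl identifier each among the 23318 genes measured. The RNA came from mouse small intestinal epithelium, as part of work on intestinal differentiation and the DNA base 5-hydroxymethylcytosine. There were 4 CD24Mid libraries (numbers 1, 3, 5 and 7) and 4 CD24Neg libraries (numbers 2, 4, 6 and 8), which the series text calls biological replicates. CD24 is a surface glycoprotein, and the series text also calls the CD24Mid cells CD24low. From both fractions, cells that carry CD45, a leukocyte antigen, and cells that bind the Ulex europaeus lectin were removed. The labels used here name no genotype, strain, sex or age. Each value below is the authors' normalised expression value of a gene in 1 library, given in the order of these library numbers, and averages are means ± SD over 4 libraries.

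Claudins are membrane proteins that assemble into strands at the tight junction. Some of them seal the space between cells, while others, such as claudin-2 and claudin-15, form pores for small cations. ZO proteins and cingulin tie the strands to actin, cadherins and catenins build the adherens junction below, and desmosomes anchor keratin filaments. The Par, Crumbs and Scribble group proteins place these junctions at the boundary between the apical and the basolateral membrane. In the small intestine the epithelium renews from crypts to villi, and claudin-2 protein is known mainly from crypts.

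The promoters of 4 genes are shown first: Cldn2 and Cldn4, the claudins that differed most in each direction, and the related genes Cgnl1 and Cgn, of which Cgnl1 was higher and Cgn lower in CD24Mid. The stretches come from RefSeq on GRCm38.p6 and run from 250 bases before to 50 bases after the start of transcription, read 5′ to 3′ on the strand of the gene. Capitals mark CAGGTG or its reverse complement CACCTG, the E-box read by Snail factors. The Cldn2 promoter lies at chrX:139800558-139800857 on the plus strand, and the Cldn4 promoter at chr5:134946885-134947184 on the minus strand. The Cgnl1 promoter lies at chr9:71771553-71771852 and the Cgn promoter at chr3:94786433-94786732, both on the minus strand.
Cldn2: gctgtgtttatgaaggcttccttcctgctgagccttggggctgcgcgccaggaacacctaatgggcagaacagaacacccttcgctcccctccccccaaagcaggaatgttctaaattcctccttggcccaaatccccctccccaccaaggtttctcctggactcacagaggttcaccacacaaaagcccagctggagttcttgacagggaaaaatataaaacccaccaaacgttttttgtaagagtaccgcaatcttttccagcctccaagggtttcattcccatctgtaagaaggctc
Cldn4: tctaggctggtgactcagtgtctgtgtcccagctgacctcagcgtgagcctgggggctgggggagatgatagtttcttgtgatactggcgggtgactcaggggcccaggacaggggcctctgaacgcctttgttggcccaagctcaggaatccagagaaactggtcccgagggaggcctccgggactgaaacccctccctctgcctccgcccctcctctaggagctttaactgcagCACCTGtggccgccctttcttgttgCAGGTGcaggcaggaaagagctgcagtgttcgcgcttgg
Cgnl1: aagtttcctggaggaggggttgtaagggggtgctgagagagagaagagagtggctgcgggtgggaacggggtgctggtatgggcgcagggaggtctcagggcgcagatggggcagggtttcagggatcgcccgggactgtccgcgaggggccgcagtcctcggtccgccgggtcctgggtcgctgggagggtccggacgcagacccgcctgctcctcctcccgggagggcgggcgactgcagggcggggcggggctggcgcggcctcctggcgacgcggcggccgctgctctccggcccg
Cgn: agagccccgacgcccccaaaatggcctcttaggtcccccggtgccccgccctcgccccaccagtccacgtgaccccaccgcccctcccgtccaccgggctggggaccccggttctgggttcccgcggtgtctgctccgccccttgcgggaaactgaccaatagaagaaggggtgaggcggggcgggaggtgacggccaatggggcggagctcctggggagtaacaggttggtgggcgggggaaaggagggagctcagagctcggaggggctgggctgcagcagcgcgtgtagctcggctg
The Cldn4 stretch holds the E-box at both orientations, CACCTG starting 14 bases before the start site and CAGGTG starting 11 bases after it. The other 3 stretches hold none.

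Promoters of 26 of the 39 genes were in the RefSeq table, 40 stretches in all because some genes have several. The E-box CAGGTG, searched on both strands, was in 17 of these 40 (42.5%) and in 20.2% of all 32851 promoters in the table. It was found in at least 1 promoter of 13 of the 26 genes: Cldn3, Cldn4, Cldn7, Crb3, Dsp, F11r, Marveld2, Ocln, Pard3, Pard6b, Patj, Pkp4 and Tjp3. The Cdx motif TTTATNG, the Tcf motif CTTTGAT and the Hnf4 motif CAAAGTCCA were in none of the 40, and in 10.9%, 3.73% and 0.475% of all promoters. The last of these can share the letters CAAAG with the reverse complement of the Tcf motif. The Gata motif AGATAA was in promoters of Cldn10 and Tjp3, and in 11.2% of all promoters. A match describes the letters in these windows only.

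The junction genes moved in both directions between CD24Mid and CD24Neg. Cldn2, the cation and water pore claudin, Cgnl1 (paracingulin), and Prkci, the atypical protein kinase C of the Par complex, were higher in CD24Mid. Cldn4, F11r (junctional adhesion molecule A), Cgn (cingulin), the desmosomal genes Pkp3 and Evpl, and the polarity genes Patj, Crb3 and Llgl2 were lower. These 11 differences ran from a 11.7-fold higher value of Cgnl1 to a 5.19-fold lower value of Cldn4, and each passed the test under all 20 alternative ways of processing that were tried. Cgnl1 could be tested only because of its CD24Mid values, so its passing is no separate support. The share of all genes that held under all 20 was not computed, so the count of 11 is not read as particular to junction genes. Of the other tested genes, only Dsp kept its result under all 20, and it did not pass in any of them, although its sign was not always the same. The remaining 25 genes changed their result somewhere.

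**Figure D1:**
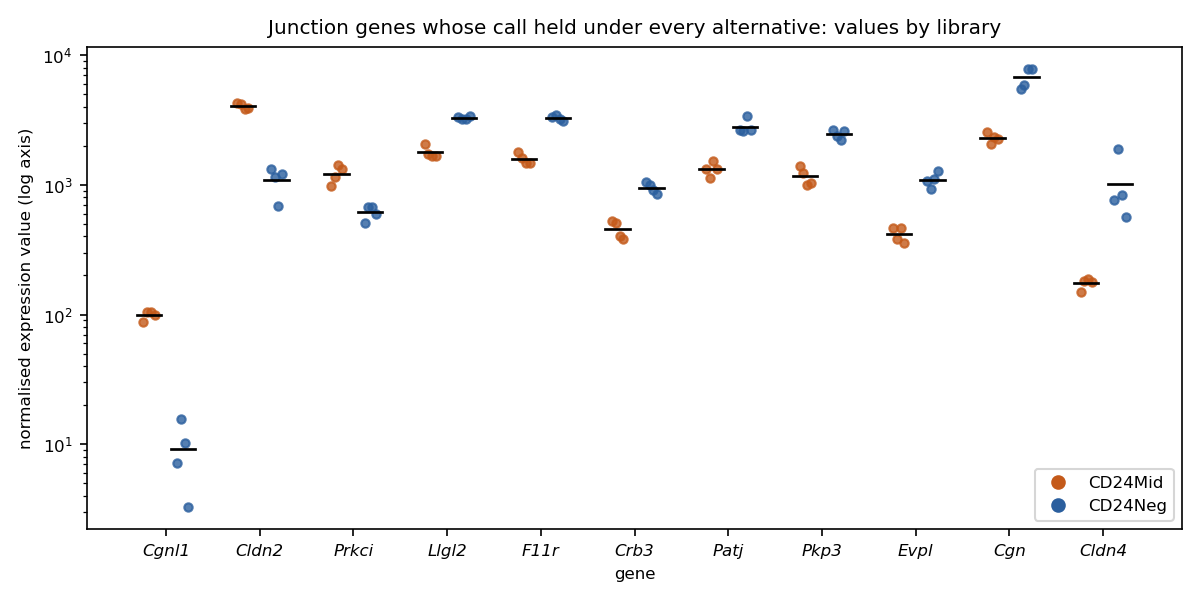
Normalised expression values (log axis) of the 11 junction genes whose result held under every alternative, by library. Points are single libraries, CD24Mid left of CD24Neg, and bars are means of 4. The fractions do not overlap in any of the 11, and only Cgnl1, Cldn2 and Prkci are higher in CD24Mid.

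Differences were tested with limma on log2(value + 0.5), with p-values adjusted by Benjamini-Hochberg over all tested genes, and a gene is called where its adjusted p is under 0.05. Fold changes are on this scale, CD24Mid minus CD24Neg. A gene was tested where its value was at least 10 in at least 4 libraries, which held for 37 of the 39 genes. Of these, 23 were called (62.2%), against 68.3% of all 12906 tested genes, a share near that background. Of the 37, 5 were higher in CD24Mid, against 34.3% of all genes, and 18 were lower, against 34.0% of all genes. At least 2-fold differences were seen in 9 of the 37 (24.3%), and in 38.0% of all genes. Of the 9, 2 were higher, against 19.9% of all genes, and 7 lower, against 18.1% of all genes. No overlap between fractions was seen in 21 of the 37 genes, and in 63.8% of all genes. The median absolute log2 fold change was 0.52 over the junction genes and 0.75 over all genes.

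The split of directions depended on how the libraries were put on 1 scale. With the median-ratio scaling used throughout, the log2 fold change was above 0 in 9 genes and below 0 in 28, with a median of -0.36, while the median of all genes was 0.02. Quantile normalization gave 20 above and 17 below, and 11 called higher and 12 lower. Scaling by library totals, leaving out the 20 most abundant genes, gave 21 above and 16 below, with 13 called higher and 11 lower, and it moved the median of all genes by 0.42 on the log2 scale. Over all 12906 tested genes, 4593 were called higher and 4052 lower with quantiles, and 6497 and 2842 with totals. Relative to the median of all genes, the median of the junction genes lay 0.38 lower with the median ratio, 0.38 lower with totals and 0.04 lower with quantiles. In 23 genes the sign was the same under all 3 scalings, 8 above and 15 below 0.

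**Figure D2:**
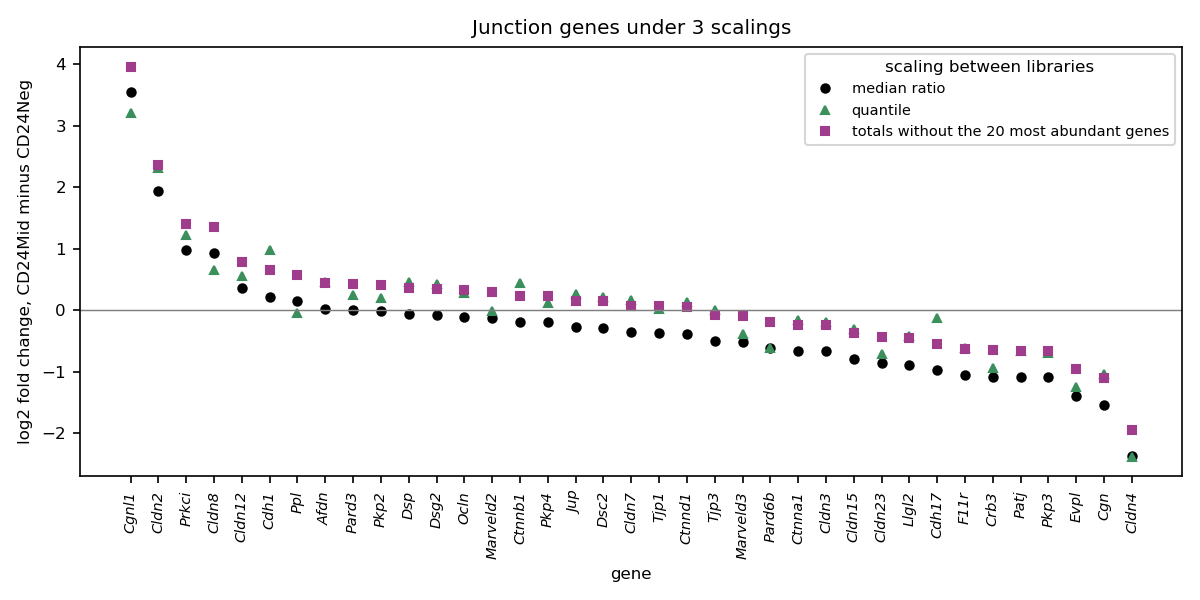
Log2 fold changes, CD24Mid minus CD24Neg, of the 37 tested junction genes under 3 scalings between libraries, ordered by the median-ratio value. The ends of the order keep their sign under all 3, while the genes in the middle cross 0, so that 28 lie below 0 with the median ratio and 16 with totals.

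Both fractions carried the markers of an epithelium. The epithelial list summed to between 0.921% and 1.17% of the values of nuclear genes in CD24Mid and between 1.12% and 1.36% in CD24Neg. Enterocyte markers summed to between 0.141% and 0.242% in CD24Mid and between 3.03% and 4.94% in CD24Neg, with 10 of 10 lower in CD24Mid. Markers of crypt stem and proliferating cells summed to between 0.531% and 0.774% in CD24Mid and between 0.0247% and 0.0617% in CD24Neg, with 8 of 8 higher. Goblet cell markers summed to 0.486% to 0.703% in CD24Mid and 1.17% to 3.38% in CD24Neg (5 of 8 called lower), and enteroendocrine markers to 0.0362% to 0.108% in CD24Mid and 0.00706% to 0.0114% in CD24Neg (6 of 8 called higher). T cell markers were highest in CD24Neg libraries 2 and 8, at 0.0504% and 0.0397%, and at most 0.00791% in the other libraries (6 of 8 called lower in CD24Mid). Within CD24Mid these markers were highest in libraries 1 and 7, at 0.00242% and 0.00252%. B and plasma cell markers summed to 0.0625% to 0.107% in CD24Mid and 0.0284% to 0.0372% in CD24Neg, with 5 of 6 tested called higher and 1 lower. Paneth cell markers, at 0.0137% to 0.0344% in CD24Mid and 0.00861% to 0.0314% in CD24Neg, overlapped between fractions, as did tuft cell and myeloid markers, which summed to at most 0.00597% in any library. Single members still differed. Mmp7 was called higher and Defa22 lower in the Paneth list, Pou2f3 higher and Ltc4s lower in the tuft list. In the myeloid list 2 of 5 tested were called higher. All 8 measured fibroblast and smooth muscle markers were below 10 in every library, and glial and neuronal markers summed to at most 0.000255% in any. In such bulk samples fewer cells of a type and less RNA per cell cannot be told apart. The part of this cell makeup in the differences below was not tested.

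Estimated depth was 17.5 to 19.6 M reads in CD24Mid and 12.5 to 20.7 M reads in CD24Neg, and mitochondrial genes held 8.03% to 9.10% of the values in CD24Mid and 28.3% to 37.4% in CD24Neg. The 39 junction genes together held 0.979% to 1.07% of the nuclear values in CD24Mid and 0.994% to 1.02% in CD24Neg, ranges that overlap. Over the 37 tested genes the median coefficient of variation between libraries was 12.0% in CD24Mid and 12.1% in CD24Neg, against 14.3% and 16.6% over all tested genes. Within CD24Mid, libraries 1 and 3 stood apart from 5 and 7 by transcript length. The median deviation from the group mean of long genes (over 3325 bases), minus that of short genes (up to 1200 bases), was -0.22 and -0.17 on the log2 scale in libraries 1 and 3, and 0.19 in both of libraries 5 and 7. Among the 37 genes, of which 16 were long, 9 were higher in both of 5 and 7 than in both of 1 and 3, 6 of them long. In 12 genes the values were lower, and 0 of these were long. Length here is the median over the annotated transcripts of a gene, so these counts depend on that choice. It was 800 bases for Ctnnb1 and 717 for Llgl2, both among the 12, and 614 for Prkci, among the 9. The same counts over all genes were not made.

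**Figure D3:**
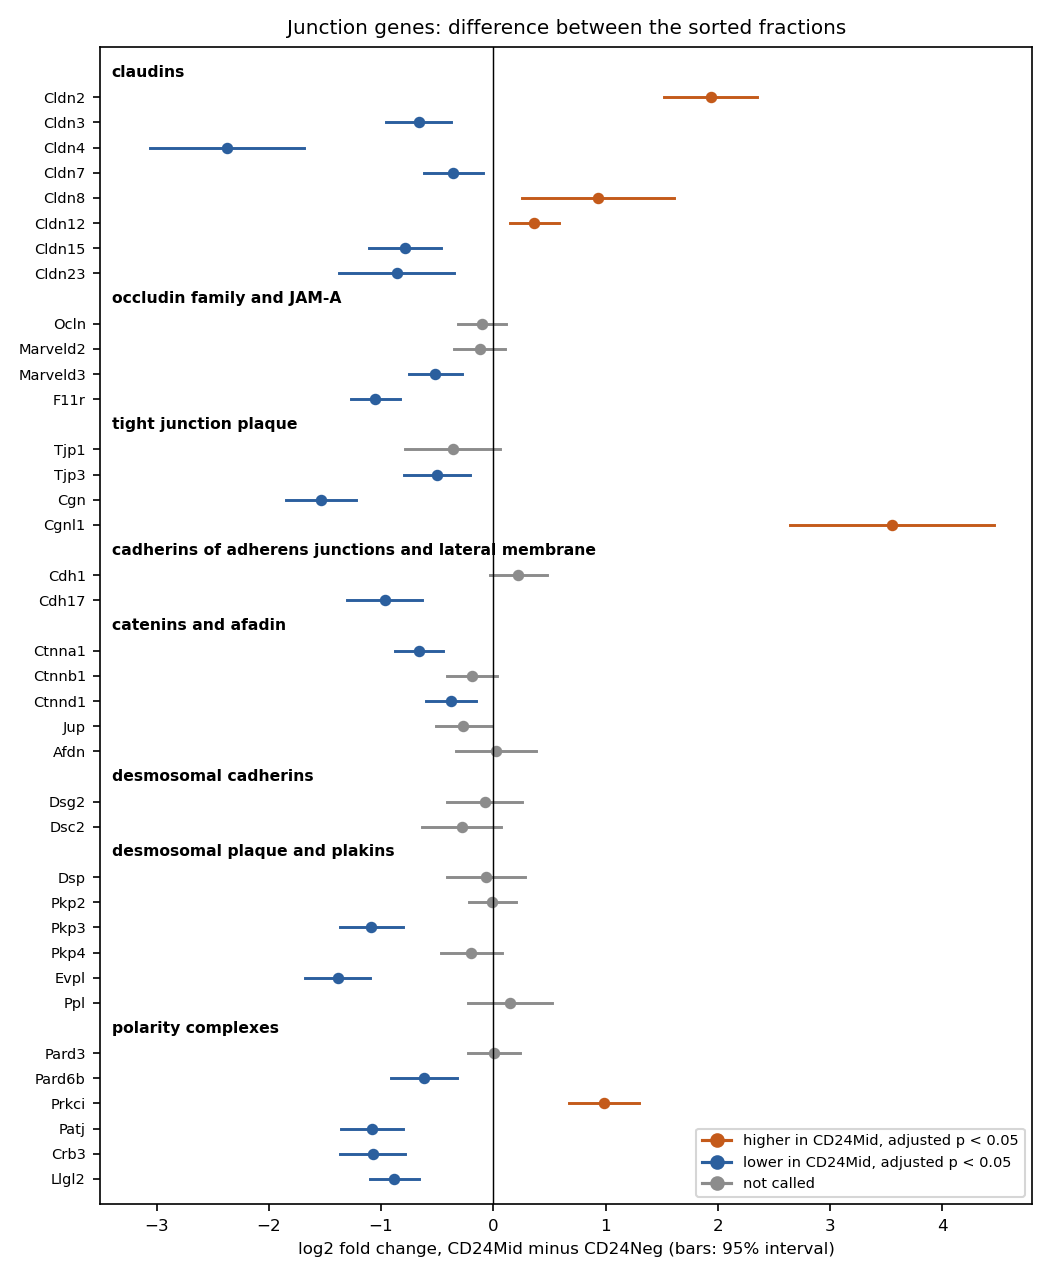
Log2 fold change, CD24Mid minus CD24Neg, of the 37 tested junction genes, grouped by role, with 95% intervals from limma. Orange marks genes higher and blue genes lower in CD24Mid at an adjusted p of 0.05, and grey the 14 that did not pass. Claudins and polarity genes hold most of the coloured points, and neither desmosomal cadherin passed.

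All 8 claudins that could be tested were called, against 68.3% of all genes, 3 higher and 5 lower in CD24Mid, although Cldn7 lay above 0 under both other scalings. Differences of at least 2-fold were seen in 2 of the 8, against 38.0% of all genes. Cldn2 (ENSMUSG00000047230) had values of 4239, 4223, 3843 and 3883 in CD24Mid, against 1313, 1141, 684 and 1214 in CD24Neg. Every CD24Mid library lay above every CD24Neg library, a 3.83-fold difference (log2 fold change 1.94 with an SE of 0.18, limma adjusted p = 8.38e-06). Cldn4 (ENSMUSG00000047501), a claudin known for limiting the passage of ions in other epithelia, moved the other way, with 149.6, 183, 188 and 179 in CD24Mid, against 767, 1879, 832 and 559 in CD24Neg. Its values were close together in CD24Mid, and spread in CD24Neg, where library 4 was by far the highest. The difference was 5.19-fold (log2 fold change -2.37 with an SE of 0.31, limma adjusted p = 7e-05). Within CD24Neg, library 4 was also the highest for goblet cell markers, at 3.38% of nuclear values. The same held for Paneth (0.0314%), tuft (0.00223%) and enteroendocrine markers (0.0114%). Over the other CD24Neg libraries none of these lists had the order of Cldn4, but an order of so few libraries decides nothing. The part of these cell types in the Cldn4 value was not tested. Without CD24Neg library 4 the log2 fold change of Cldn4 was -2.03, limma adjusted p = 9.77e-06.

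Cldn15, the sodium pore claudin of the small intestine, had values of 6293, 6024, 5095 and 4831 in CD24Mid, against 9403, 10228, 11192 and 7739.5 in CD24Neg. It was lower in all CD24Mid libraries, 1.73-fold (log2 fold change -0.79 with an SE of 0.14, limma adjusted p = 0.00069). Cldn3, a sealing claudin, had 6049.5, 4939, 4357 and 4392 in CD24Mid, against 8670.5, 7767, 7145 and 7502 in CD24Neg. Here too the fractions did not overlap (log2 fold change -0.66 with an SE of 0.13, limma adjusted p = 0.0011). Cldn7, which lies along the whole lateral membrane in the intestine, had 9541, 8712, 7247 and 7561 in CD24Mid, against 11277, 10622, 10225 and 10051 in CD24Neg, a smaller difference without overlap (log2 fold change -0.36 with an SE of 0.12, limma adjusted p = 0.0203). The calls of Cldn3 and Cldn7 were lost under both other scalings, and Cldn7 then lay above 0, at 0.16 with quantiles and 0.07 with totals. Without CD24Mid library 5 Cldn7 no longer passed (log2 fold change -0.29, limma adjusted p = 0.0733), nor without library 7 (log2 fold change -0.31, limma adjusted p = 0.0695).

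The other claudins had smaller values or smaller differences. Cldn12 averaged 840.3 ± 86.5 in CD24Mid and 650.3 ± 25.9 in CD24Neg, and its fractions did not overlap (log2 fold change 0.36 with an SE of 0.10, limma adjusted p = 0.00712). Cldn23 averaged 547 ± 147 in CD24Mid and 983 ± 217 in CD24Neg, and CD24Neg library 4, at 687, lay below the highest CD24Mid library, at 693 (log2 fold change -0.86 with an SE of 0.23, limma adjusted p = 0.00714). With totals the call of Cldn23 was lost, at -0.43. Cldn8 averaged 83.2 ± 21.0 in CD24Mid and 43.9 ± 14.4 in CD24Neg, with overlap, and its call (log2 fold change 0.94 with an SE of 0.30, limma adjusted p = 0.019) was lost without CD24Mid library 3 (log2 fold change 0.84, limma adjusted p = 0.0554) and with quantiles, at 0.67. Cldn1 reached at most 1.05 in CD24Mid and 0.743 in CD24Neg. Cldn10 had a value of 0.406 in CD24Mid library 3 and was listed at 0 in the other 7. Neither was tested.

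The makeup of the claudins differed as well. Dividing each value by transcript length in kb, which allows levels of different genes to be set side by side, gave a claudin sum of 23038 ± 2512 in CD24Mid and 27084 ± 1587 in CD24Neg. Of this sum Cldn2 made up 23.4% ± 1.37 in CD24Mid and 5.31% ± 1.31 in CD24Neg (SD, n = 4 each). Cldn7 made up 42.9% ± 0.96 in CD24Mid and 46.6% ± 0.75 in CD24Neg, Cldn3 17.0% ± 0.93 in CD24Mid and 22.8% ± 1.10 in CD24Neg, and Cldn15 12.9% ± 0.53 in CD24Mid and 19.0% ± 2.79 in CD24Neg. Cldn4 made up 0.42% ± 0.08 in CD24Mid and 2.04% ± 1.15 in CD24Neg. These shares rest on the median length of the annotated transcripts of a gene, which is short for Cldn2, at 0.755 kb. With the longest transcript Cldn2 made up 8.91% in CD24Mid and 1.72% in CD24Neg, so its level beside the other claudins depends on the length used, while it was larger in CD24Mid with both lengths. Cldn7 was 41.2% in CD24Mid and 38.0% in CD24Neg with the longest transcript, which turns its direction round.

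**Figure D4:**
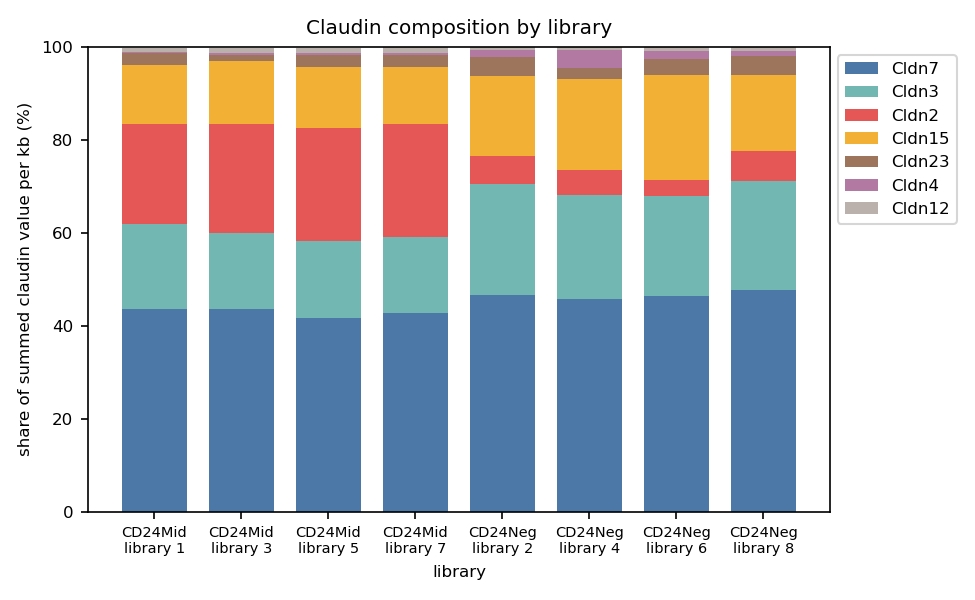
Share of each claudin in the summed claudin value per kb of median transcript length, by library, with CD24Mid libraries on the left. Cldn1, Cldn8 and Cldn10, each under 1% in every library, are not drawn. The Cldn2 share is 21.4% to 24.4% in CD24Mid and 3.43% to 6.36% in CD24Neg.

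Ocln encodes occludin, a membrane protein of tight junctions, and Marveld2 (tricellulin) and Marveld3 are its relatives. Ocln and Marveld2 did not pass, while Marveld3 and F11r were lower in CD24Mid. Ocln had 1571, 1424, 1724 and 1609 in CD24Mid, against 1584, 1737, 1852 and 1613 in CD24Neg, with overlap (log2 fold change -0.10, 95% interval -0.32 to 0.11, limma adjusted p = 0.367). Marveld2, which seals the points where 3 cells meet, had 566, 485, 540.3 and 562 in CD24Mid, against 554, 532, 601 and 657 in CD24Neg (log2 fold change -0.12, 95% interval -0.35 to 0.11, limma adjusted p = 0.315). Both pairs of ranges overlap, and under scaling to totals both genes were called higher in CD24Mid, at 0.33 for Ocln and 0.31 for Marveld2, as Ocln was with quantiles, at 0.29. Marveld3 averaged 538 ± 66.9 in CD24Mid and 767 ± 34.9 in CD24Neg (log2 fold change -0.52 with an SE of 0.11, limma adjusted p = 0.00146), a call that was lost with totals, at -0.09. F11r (ENSMUSG00000038235), the immunoglobulin-like adhesion molecule that helps to place the Par complex, had 1791, 1611, 1465 and 1469 in CD24Mid, against 3316, 3475, 3216 and 3095 in CD24Neg. All CD24Mid values lay below all CD24Neg values, 2.07-fold (log2 fold change -1.05 with an SE of 0.10, limma adjusted p = 6.84e-06).

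In the tight junction plaque the related genes Cgnl1 and Cgn went opposite ways. Cgnl1 (ENSMUSG00000032232) encodes paracingulin, found at tight and adherens junctions, and had 87.7, 105, 105 and 99.2 in CD24Mid, against 7.20, 15.8, 10.3 and 3.28 in CD24Neg. It was 11.7-fold higher in CD24Mid (log2 fold change 3.55 with an SE of 0.41, limma adjusted p = 3.08e-05). The CD24Neg values correspond to about 2.08 to 9.64 estimated reads, so the size of this fold is imprecise. Cgnl1 met the filter only through its CD24Mid libraries, so its p-value is no separate support for the difference. Cgn (ENSMUSG00000068876), the gene of cingulin, which binds ZO proteins and actomyosin, had 2564, 2058, 2331 and 2260.0 in CD24Mid, against 5497, 5892, 7737 and 7803 in CD24Neg. Cgn was lower in all CD24Mid libraries, 2.90-fold (log2 fold change -1.53 with an SE of 0.14, limma adjusted p = 6.34e-06).

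The ZO genes differed less. Tjp3, which encodes ZO-3, had 5048, 4125, 3762 and 3839 in CD24Mid, against 6298, 5297, 5359.7 and 6762 in CD24Neg, without overlap (log2 fold change -0.50 with an SE of 0.13, limma adjusted p = 0.00637), and it was not called with quantiles, at 0.01, or totals, at -0.07. Tjp1, which encodes ZO-1, had 1178, 1062, 1730.0 and 1703 in CD24Mid, against 1363, 1888, 2066 and 1879 in CD24Neg and did not pass (log2 fold change -0.36, 95% interval -0.78 to 0.06, limma adjusted p = 0.116). Within CD24Mid, libraries 5 and 7 lay well above 1 and 3, and library 2 was the lowest in CD24Neg. Without CD24Neg library 2 Tjp1 passed (log2 fold change -0.50, limma adjusted p = 0.0331), and it also passed without CD24Mid libraries 5 and 7 (log2 fold change -0.65, limma adjusted p = 0.0134). Both ZO genes were lower in CD24Mid whenever they passed.

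Of the cadherins, Cdh1 (E-cadherin, the main adhesion receptor of adherens junctions) did not pass and Cdh17 (LI-cadherin, found along the lateral membrane of enterocytes) was lower in CD24Mid. Cdh1 had 15748, 12613, 14699.5 and 14858 in CD24Mid, against 13127, 12830.4, 12319.6 and 11294 in CD24Neg. Only CD24Mid library 3 lay within the CD24Neg range (log2 fold change 0.22, 95% interval -0.03 to 0.48, limma adjusted p = 0.106). Under quantile and total scaling Cdh1 was called higher in CD24Mid, by 0.99 and 0.65 on the log2 scale. Cdh17 had 11829, 8882, 11528 and 12002 in CD24Mid, against 18466, 20964, 26147 and 21072 in CD24Neg, a 1.96-fold difference without overlap (log2 fold change -0.97 with an SE of 0.15, limma adjusted p = 0.000218). The call of Cdh17 was lost under quantile normalization, at a log2 fold change of -0.13.

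The catenins link cadherins to actin, and 2 of the 5 genes of this group passed, both lower in CD24Mid, but both calls were lost with quantiles, where Ctnna1 lay at -0.15 and Ctnnd1 above 0. Ctnna1 (alpha-catenin, the actin link) averaged 4674 ± 118 in CD24Mid and 7412 ± 573 in CD24Neg (log2 fold change -0.66 with an SE of 0.10, limma adjusted p = 0.00015). Ctnnd1 (p120 catenin, which keeps cadherins at the membrane) averaged 5816 ± 149.7 in CD24Mid and 7573 ± 686 in CD24Neg (log2 fold change -0.38 with an SE of 0.10, limma adjusted p = 0.00726). Ctnnd1 shares 4482 exonic bases with Gm28635 on the same strand in the GENCODE M21 annotation. Gm28635 is not among the measured genes, and whether reads of Ctnnd1 were split with it cannot be seen from the values. Ctnnb1 shares 759 exonic bases with Ulk4 on the opposite strand, which averaged 5.79 in CD24Mid and 5.19 in CD24Neg. Exons of Afdn, Dsp, Dsg2, Ctnna1, Tjp3, Cldn3 and Crb3 overlap a gene on the opposite strand by 14 to 499 bases, and how strand was used in counting is not stated in the sources. Ctnnb1 (beta-catenin, also the Wnt effector) had 10139, 10701, 9824 and 10117 in CD24Mid, against 11845, 11890.3, 12147 and 10566 in CD24Neg, with overlap between CD24Mid library 3 and CD24Neg library 8 (log2 fold change -0.19, 95% interval -0.41 to 0.04, limma adjusted p = 0.12).

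Jup (plakoglobin, shared by adherens junctions and desmosomes) had 4068, 3829, 3369.5 and 3467 in CD24Mid, against 4687, 4772, 4429 and 3859 in CD24Neg. CD24Mid library 1 lay above CD24Neg library 8, and the fractions were otherwise apart. The adjusted p of Jup lay just past the threshold, with an unadjusted interval that leaves out 0 (log2 fold change -0.27, 95% interval -0.51 to -0.02, limma adjusted p = 0.0504). Without CD24Neg library 8 Jup passed (log2 fold change -0.34, limma adjusted p = 0.0216), as it did without CD24Mid library 1 (log2 fold change -0.31, limma adjusted p = 0.033), while under quantile normalization it was called higher in CD24Mid, at 0.26. Afdn (afadin, the nectin partner) had 1767, 1791, 2283 and 2285 in CD24Mid, against 1599.8, 2083, 2586 and 1794 in CD24Neg, with wide overlap (log2 fold change 0.02, 95% interval -0.34 to 0.38, limma adjusted p = 0.902), although it was called higher in CD24Mid with quantiles, at 0.46, and totals, at 0.45. The directions of Ctnnb1 and Ctnnd1 also flipped with the other scalings, to 0.44 and 0.13 with quantiles and to 0.24 and 0.05 with totals.

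The desmosomal cadherins form the adhesive part of the desmosome, and neither passed. Dsg2 (desmoglein-2) had 3003, 2512, 3544 and 3874 in CD24Mid, against 2815, 3519, 3631 and 3569.6 in CD24Neg (log2 fold change -0.08, 95% interval -0.41 to 0.26, limma adjusted p = 0.663). Its partner Dsc2 (desmocollin-2) had 2278, 1982, 2611 and 2911 in CD24Mid, against 2285, 3293, 3362 and 2953 in CD24Neg (log2 fold change -0.28, 95% interval -0.63 to 0.07, limma adjusted p = 0.137). With quantiles Dsg2 was called higher in CD24Mid, at 0.43. In both genes CD24Mid libraries 5 and 7 lay above 1 and 3, and CD24Neg library 2 was the lowest of its fraction. Without CD24Neg library 2, Dsc2 passed as lower in CD24Mid (log2 fold change -0.42, limma adjusted p = 0.0266).

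The desmosomal plaque was divided between 2 genes that were lower in CD24Mid by over 2-fold and 4 that did not pass. Pkp3 (ENSMUSG00000054065), a plakophilin, had 1404, 1235, 998 and 1032 in CD24Mid, against 2644, 2388, 2223 and 2605 in CD24Neg. The fractions lay far apart, 2.13-fold (log2 fold change -1.09 with an SE of 0.13, limma adjusted p = 3.09e-05). Evpl (ENSMUSG00000034282), which encodes envoplakin, a plakin known best from the cornified envelope of the skin, had 467, 379, 464 and 359 in CD24Mid, against 1069, 924, 1098 and 1273 in CD24Neg. It was 2.61-fold lower in CD24Mid (log2 fold change -1.39 with an SE of 0.13, limma adjusted p = 7.77e-06). Pkp1, a further plakophilin gene, from the list of other junction genes, went the other way without overlap. It averaged 1205 ± 79.4 in CD24Mid and 248 ± 54.3 in CD24Neg (log2 fold change 2.30 with an SE of 0.15, limma adjusted p = 9.66e-07).

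Dsp, the gene of desmoplakin, which joins desmosomes to keratins, had 6545, 6497, 8567 and 8784 in CD24Mid, against 6227, 8359, 8973 and 8164 in CD24Neg (log2 fold change -0.06, 95% interval -0.41 to 0.29, limma adjusted p = 0.733). Pkp2, another plakophilin, had 882, 795, 798 and 761 in CD24Mid, against 867, 745, 778 and 869.7 in CD24Neg (log2 fold change -0.01, 95% interval -0.22 to 0.20, limma adjusted p = 0.93). In these genes the fractions covered nearly the same range, and with the median ratio the intervals leave out a 1.5-fold difference in either direction. Dsp lay above 0 with the other scalings, at 0.46 with quantiles and 0.36 with totals. Its lowest limma adjusted p over the alternatives was 0.0503, just past the threshold. Pkp4, also found at adherens junctions, had 1019, 1164, 1208 and 1150.3 in CD24Mid, against 1049, 1278, 1483 and 1429.9 in CD24Neg (log2 fold change -0.20, 95% interval -0.47 to 0.08, limma adjusted p = 0.177), and it passed without CD24Neg library 2 (log2 fold change -0.31, limma adjusted p = 0.0246). Ppl, the gene of periplakin, a partner of envoplakin, had 175, 159, 240.1 and 195 in CD24Mid, against 162, 148, 213 and 169 in CD24Neg (log2 fold change 0.15, 95% interval -0.23 to 0.52, limma adjusted p = 0.456). Ppl was called higher in CD24Mid only with totals, at 0.57, as was Pkp2, at 0.42.

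The polarity genes included 1 that was higher and 4 that were lower in CD24Mid. Prkci (ENSMUSG00000037643), whose kinase acts in the Par complex to set the apical domain, had 985, 1138, 1409 and 1315 in CD24Mid, against 504, 669.5, 674 and 597 in CD24Neg. All CD24Mid libraries lay above all CD24Neg libraries, 1.98-fold (log2 fold change 0.98 with an SE of 0.14, limma adjusted p = 0.000131). Its complex partner Pard3 had 831, 889, 982 and 928 in CD24Mid, against 806, 908, 1039.8 and 869.8 in CD24Neg, with nearly equal means (log2 fold change 0.01, 95% interval -0.23 to 0.24, limma adjusted p = 0.964), although it was called higher in CD24Mid with quantiles, at 0.25, and totals, at 0.43. Pard6b, the adaptor between them, averaged 347 ± 40.7 in CD24Mid and 534 ± 68.5 in CD24Neg (log2 fold change -0.62 with an SE of 0.13, limma adjusted p = 0.00177), and its call was lost with totals, at -0.19.

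Crb3 and Patj, the members that belong to the Crumbs complex, were lower in CD24Mid. Crb3 (ENSMUSG00000044279), the apical membrane protein of that complex, had 526, 504, 399 and 383 in CD24Mid, against 1046, 996, 909 and 845 in CD24Neg. Patj (ENSMUSG00000061859), its scaffold, had 1331, 1131, 1519.7 and 1316 in CD24Mid, against 2634, 2593, 3361 and 2637 in CD24Neg. Both were without overlap, 2.11-fold for Crb3 (log2 fold change -1.07 with an SE of 0.13, limma adjusted p = 4.18e-05) and 2.12-fold for Patj (log2 fold change -1.08 with an SE of 0.12, limma adjusted p = 2.87e-05). Llgl2 (ENSMUSG00000020782), a basolateral protein of the Scribble group, had 2073, 1719, 1671 and 1669 in CD24Mid, against 3299, 3215, 3214 and 3367 in CD24Neg and was 1.84-fold lower (log2 fold change -0.88 with an SE of 0.10, limma adjusted p = 2.32e-05).

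Ratios of 2 genes within a library do not depend on how libraries are scaled, and 9 pairs of related genes were compared in this way by an exact two-sided permutation test over the libraries. With 4 libraries against 4 the smallest p it can give is 0.0286, which is 2 of 70 splits. Since values are not per length here, only the difference of a ratio between fractions is read. Values of the fractions were apart in 7 of the 9 pairs (exact permutation p = 0.0286, the smallest possible, 0.0367 after Benjamini-Hochberg adjustment over the 9). Single genes were without overlap in 63.8% of all tested genes, and the share for pairs of any genes was not computed. The count is therefore not read as particular to junction genes. The ratio of Cldn2 to Cldn15 was 0.674, 0.701, 0.754 and 0.804 in CD24Mid, against 0.140, 0.112, 0.0612 and 0.157 in CD24Neg. It was 6.61-fold higher in CD24Mid, with a log2 difference of 2.73, and was lowest in CD24Neg library 6.

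The ratio of Cgnl1 to Cgn showed a log2 difference of 5.09, the largest of the 9, and rests on the low Cgnl1 values of CD24Neg. The ratio of Cdh17 to Cdh1 was 0.751, 0.704, 0.784 and 0.808 in CD24Mid, against 1.41, 1.63, 2.12 and 1.87 in CD24Neg. It was lower in every CD24Mid library than in any CD24Neg library, with a log2 difference of -1.19. In the desmosome the log2 difference was 1.53 for Ppl over Evpl, 1.08 for Pkp2 over Pkp3 and -0.20 for Dsc2 over Dsg2. Cldn3 over Cldn7 differed by -0.31, so Cldn3 was lower relative to Cldn7 in CD24Mid.

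The other 2 ratios overlapped between the fractions. Jup over Ctnnb1 differed by -0.08 (exact permutation p = 0.2, adjusted 0.225), and Tjp3 over Tjp1 by -0.14 (exact permutation p = 0.629). The ratio of Tjp3 to Tjp1 was 4.28, 3.88, 2.17 and 2.25 in CD24Mid, against 4.62, 2.80, 2.59 and 3.60 in CD24Neg. It was high in CD24Mid libraries 1 and 3 and low in 5 and 7, the same split that was seen by transcript length.

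**Figure D5:**
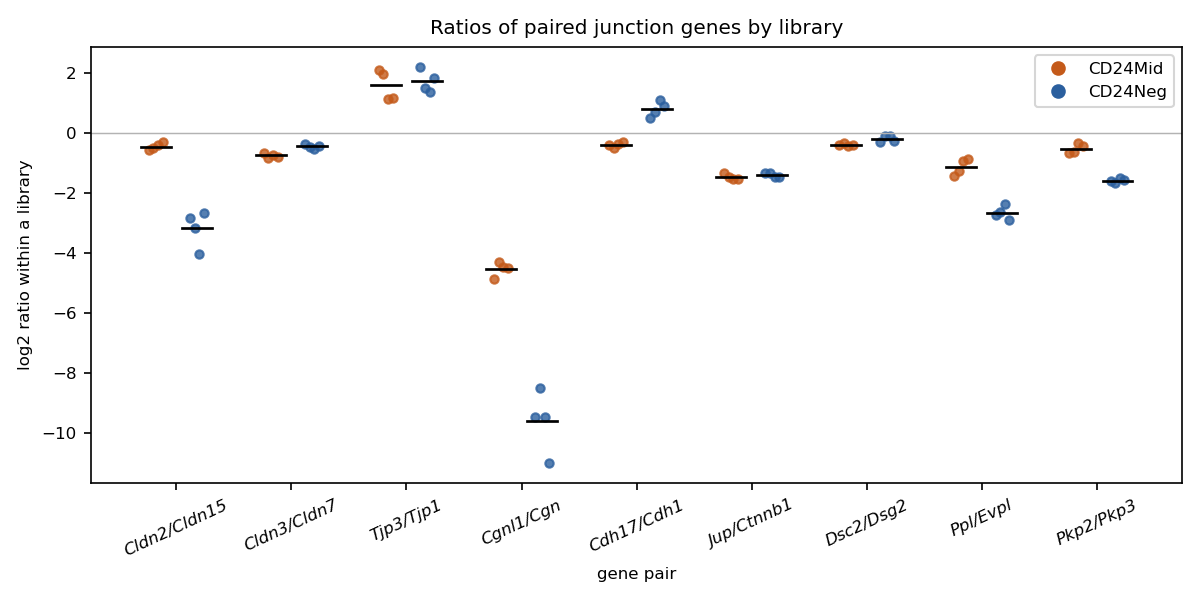
Log2 ratio of 2 junction genes within each library for 9 pairs, CD24Mid left of CD24Neg, with bars for means of 4. The fractions are apart in 7 pairs, by 5.09 for Cgnl1 over Cgn and by 2.73 for Cldn2 over Cldn15, and overlap for Tjp3 over Tjp1 and Jup over Ctnnb1.

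Other genes of the same families were taken from a list of 86 symbols, of which 73 were measured and 50 tested. Of these 50, 14 were higher and 21 lower in CD24Mid (35 called in all, against 68.3% of all genes), with a median log2 fold change of -0.05. The largest higher values were those of Amotl1, an angiomotin of the plaque, with 40.9 ± 13.9 in CD24Mid and 2.06 ± 1.57 in CD24Neg (log2 fold change 4.30 with an SE of 0.67, limma adjusted p = 0.000241), and of the Par complex adaptor Pard6g, with 22.3 ± 4.61 in CD24Mid and 1.54 ± 1.23 in CD24Neg (log2 fold change 3.76 with an SE of 0.62, limma adjusted p = 0.000357). Marveld1 averaged 63.6 ± 23.1 in CD24Mid and 9.31 ± 6.01 in CD24Neg (log2 fold change 2.81 with an SE of 0.41, limma adjusted p = 0.000163). Esam, an adhesion molecule known from endothelium, averaged 49.2 ± 7.92 in CD24Mid and 8.49 ± 2.75 in CD24Neg (log2 fold change 2.51 with an SE of 0.31, limma adjusted p = 5.52e-05). All 4 had values of at most 18.3 in CD24Neg and met the filter only through their CD24Mid libraries. Their p-values are therefore no separate support for the differences, and the sizes of these folds are imprecise. The endothelial marker list, which holds Esam itself, summed to 0.000667% to 0.000872% of nuclear values in CD24Mid and 0.000234% to 0.000539% in CD24Neg, with Esam the only 1 of 3 tested members called, and Kdr, Tek and Cldn5 were below 10 in every library. The part of endothelial cells in the Esam value was not tested.

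The largest lower values in CD24Mid were those of Cdhr2 and Cdhr5, protocadherins that link the microvilli of the brush border. Cdhr2 averaged 2550.1 ± 485 in CD24Mid and 29335 ± 5920.5 in CD24Neg, 11.5-fold lower (log2 fold change -3.52 with an SE of 0.18, limma adjusted p = 3.02e-07), and Cdhr5 averaged 2473 ± 719 in CD24Mid and 26075 ± 3451 in CD24Neg, 10.8-fold lower (log2 fold change -3.43 with an SE of 0.19, limma adjusted p = 3.64e-07). Arhgef2, whose protein binds cingulin, averaged 341 ± 19.0 in CD24Mid and 1863 ± 157 in CD24Neg (log2 fold change -2.44 with an SE of 0.09, limma adjusted p = 1.56e-07). The 23 junction genes that were not tested reached at most 10.9 in any library.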

How the data were processed

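Total RNA of sorted cells was made into libraries with the TruSeq kit, per the labels' protocols. The signal values the authors deposited are normalised gene-level expression values, 1 per Ensembl gene, already scaled between libraries. Bowtie 0.12.8 and the build NCBIM37 stand in the submitters' processing notes. How strand was used in counting is not stated in them. Whole reads could not be recovered, so no count model was used. The size of the steps between low values gave the worth of 1 read (0.584 to 0.697 in CD24Mid, 1.07 to 1.78 in CD24Neg) and the estimated depths, so low values are less precise in CD24Neg.

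Genes reaching 10 in 4 or more libraries were centred on the median ratio and fitted as log2(value + 0.5) in limma 3.58.1 (R 4.3.3; lmFit, eBayes with trend and robust variance, no covariates). Deposited values are printed unscaled by these steps. The ratios were tested in Python 3.11.15 with exact permutations. Symbols and transcript lengths are from GENCODE M21, which matched 21223 of 23318 identifiers; no coordinates were carried over from NCBIM37. On simulated data for CD24Mid against CD24Neg with 12906 genes, limma recovered 28 of 50 genes changed 1.5-fold, 45 of 50 at 2-fold, 50 of 50 at 4-fold and 49 of 50 at 8-fold, and called 9 of 12706 unchanged genes.

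All 39 junction genes are named; values in every library are given for called genes of at least 2-fold, genes not called and genes of the ratios. Of the other junction genes the 4 largest called changes in each direction are named, except 1 lower gene that is not reported here. The members and lists were chosen with earlier results of these data known. The alternatives were other scalings, filters, pseudocounts and variance models, a test against a 1.5-fold change, leaving out each library, and, chosen after seeing the data, removing a length trend and leaving out CD24Mid libraries 1 and 3 or 5 and 7.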

Additional observations from a re-analysis of the deposited data

Results flagged for a closer look

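In 4 of 74 combinations of gene and fraction, 1 library lay far from the other 3, past the 95% critical value of Dixon's test for 4 values. Chance gives about 1 such case in 20. Cdh17 was lowest in CD24Mid library 3, at 8882, with the next at 11528. Llgl2 was highest in CD24Mid library 1, at 2073, with the next at 1719. Patj was highest in CD24Neg library 6, at 3361, with the next at 2637. Dsg2 was lowest in CD24Neg library 2, at 2815, with the next at 3519. Cdh17, Llgl2 and Patj were lower in CD24Mid without the library named for each, and Dsg2 did not pass without CD24Neg library 2.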

How the results depend on the processing

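Of 37 tested junction genes, 12 kept their result under all 20 alternatives, 12 calls were lost somewhere, 9 were gained and 9 genes changed direction with a call on either side. These counts were not made over all genes. Scaling had the largest effect. With quantile normalization 11 junction genes were called higher in CD24Mid and 12 lower. The same setting gave 23 and 14 of the other junction genes, and 4593 and 4052 of all genes. With totals without the 20 most abundant genes 13 junction genes were higher and 11 lower, 26 other junction genes higher and 13 lower, and 6497 of all genes higher and 2842 lower. Among genes called on either side, signs turned with quantiles for Cldn7 (0.16), Ocln (0.29), Tjp3 (0.014), Ctnnb1 (0.44), Ctnnd1 (0.13), Jup (0.26) and Dsg2 (0.43), and with totals for Cldn7 (0.069), Ocln (0.33), Marveld2 (0.31), Ctnnb1 (0.24), Ctnnd1 (0.051) and Pkp2 (0.42). The cause was not tested. Against a 1.5-fold change, a stricter test, 3 junction genes were called higher and 9 lower, 9 and 9 of the other junction genes, and 2430 and 2360 of all genes. The calls of Cldn12 and Cldn15 were lost only there.

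Without filter on low values Ctnnb1 was called lower (-0.19). Leaving out 1 library gave 4 to 5 junction genes higher and 17 to 21 lower, 11 to 15 and 20 to 22 of the other junction genes, and 4161 to 4441 and 4168 to 4426 of all genes. Removing a length trend gave 5 higher and 21 lower, leaving out CD24Mid libraries 1 and 3 gave 4 and 19, and leaving out 5 and 7 gave 5 and 17. Over all genes these gave 4478 higher and 4474 lower, 4059 and 4151, and 3845 and 3953. With 3 libraries against 4 the exact test of a ratio can reach 0.0571 at best, so no ratio could pass. The log2 differences then ranged from 2.44 to 2.89 for Cldn2 over Cldn15, -0.34 to -0.28 for Cldn3 over Cldn7, 4.62 to 5.46 for Cgnl1 over Cgn, -1.29 to -1.09 for Cdh17 over Cdh1, -0.24 to -0.17 for Dsc2 over Dsg2, 1.45 to 1.63 for Ppl over Evpl and 1.01 to 1.13 for Pkp2 over Pkp3. With the longest transcript the claudin shares were 8.91% in CD24Mid and 1.72% in CD24Neg for Cldn2, 26.0% and 29.7% for Cldn3, 41.2% and 38.0% for Cldn7, 19.5% and 24.4% for Cldn15, 1.51% in CD24Mid for Cldn12 and 2.57% in CD24Neg for Cldn23. No paired analysis was possible because the fractions share no replicate number, and nothing in the labels makes neighbouring numbers pairs.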
